A study of Mus musculus with 9 samples.

Results

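Collagen and laminin genes of mouse muscle were examined as a set defined by name alone: protein-coding rows of the deposited table with a symbol of the form Col, number, a, number, or of the form Lama, Lamb or Lamc with a number. The rule found 48 rows among 19335, of which 38 were collagens and 10 laminins. Of these, 15 held enough counts to be tested, 10 collagens and 5 laminins, and 33 did not. The study sequenced muscle messenger RNA of wild-type mice of the widely used inbred strain C57BL/6J in 9 libraries. In the carnitine group, 3 libraries came from mice that ate a high-fat diet (60% of energy as fat) and received L-carnitine with their drinking water (100 mg/kg/day). In the high-fat group, 3 libraries came from mice on that diet alone, and the 3 control libraries came from mice on a control diet (10% of energy as fat). Per the labels, all mice entered at 9 weeks of age, were acclimatised for 2 weeks, fed for 8 weeks and fasted for 6 h before tissue collection. L-carnitine is the carrier that brings long-chain fatty acids into mitochondria. The labels name neither the muscle nor the animal behind each library, so the p-values rest on library-to-library spread, which may be partly technical.

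Each muscle fibre is wrapped in a basement membrane, a sheet built from a laminin network and a collagen IV network. Laminins are trimers of an alpha, a beta and a gamma chain that bind receptors of the fibre surface, and collagen IV is a trimer of its own chains. Outside this sheet, fibrillar collagens form the connective tissue between fibres, and other collagens such as types VI, VII and VIII form microfibrils, anchoring fibrils and short-chain networks. Most of these genes are transcribed mainly by fibroblasts, vessel cells and other non-fibre cells of muscle, so in RNA of whole tissue fewer cells of such a type and less RNA per cell cannot be told apart.

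All 48 rows together held 5045 counts, 0.0205% of all counts. Library totals ran from 2315985 to 3773649 counts. Features with no gene on the opposite strand, by the gene spans in the file, took 9.31% to 15.5% of a library's counts although they were 10946 of the 19335 features, and the 8389 features with an opposite-strand gene took the rest. The library kit was stranded, and the sources used here do not give the strand setting of the counting. A value below is therefore the count of the row under that symbol. Whether reads were counted on the strand opposite to their gene was not tested. If they were, the levels and fold changes of these rows would not be those of the named genes. Levels of 15 markers of muscle fibres were set beside the muscle label. The strand limit above applies to these markers too, so they do not settle the label. All of them were tested, and their summed level was 44000 to 52700 CPM (normalised counts, scaled to a common library size) in the carnitine libraries, 63700 to 78400 CPM in the high-fat libraries and 60700 to 89400 CPM in the control libraries.

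Collagen rows summed to 120.9, 63.9 and 72.4 CPM, here relative to the library total alone, in carnitine 1, 2 and 3, to 119, 189 and 135 in high-fat 1, 2 and 3, and to 141, 120 and 127 in control 1, 2 and 3. Carnitine 1 lay at the level of the other groups, while carnitine 2 and 3 lay below every other library. Laminin rows summed to 86.7, 71.6 and 37.9 CPM in carnitine 1, 2 and 3, to 86.7, 106.5 and 90.5 in high-fat 1, 2 and 3, and to 73.0, 71.7 and 80.6 in control 1, 2 and 3. The 3 high-fat libraries were the highest, with carnitine 1 close to the lowest of them, and carnitine 3 was the lowest of all. The share of counts on features with no opposite-strand gene was 14.1%, 9.31% and 9.98% in carnitine 1, 2 and 3, 12.8%, 14.3% and 15.3% in high-fat 1, 2 and 3, and 15.5%, 10.3% and 14.1% in control 1, 2 and 3. It was low in the same 2 carnitine libraries as the collagen sum, and also low in control 2, whose collagen sum was not. Its part in the sums was not tested.

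**Figure D1:**
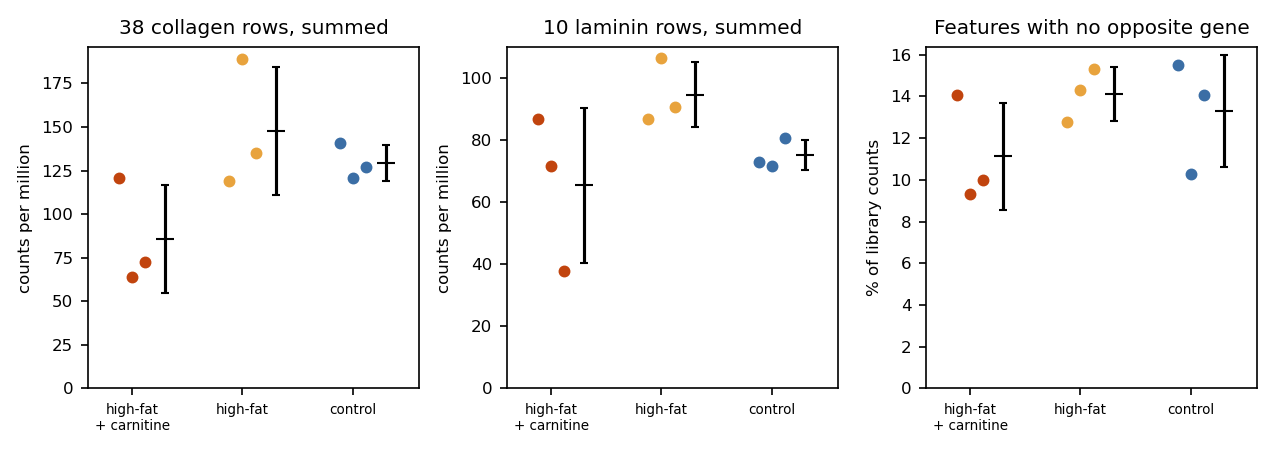
Summed CPM (counts relative to the library total) of the 38 collagen rows (left) and the 10 laminin rows (middle), and the percentage of each library's counts on features with no opposite-strand gene (right). Points are libraries and bars the mean ± SD of 3; carnitine 2 and 3 have the lowest collagen sums, 63.9 and 72.4 CPM.

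Between genes, levels were compared per gene length with the deposited FPKM, counts relative to gene length and library total. The laminin chain gene Lamb2 was highest, at 6.65 ± 2.39 FPKM (SD over all 9 libraries). The collagen IV genes Col4a1 and Col4a2 followed at 3.09 ± 1.97 and 3.02 ± 1.42 FPKM, and differed from each other by less than their spread. Lamb1 at 1.39 ± 0.274, Col7a1 at 1.35 ± 0.858 and Lamc1 at 1.35 ± 0.585 FPKM also differed by less than their spread over the 9 libraries. This order pools the groups and was not the same in each. Col7a1 was at 0.528 ± 0.169 FPKM with carnitine, 1.37 ± 0.403 on the high-fat diet and 2.16 ± 0.865 on the control diet, while Lamb1 was at 1.49 ± 0.311, 1.48 ± 0.333 and 1.21 ± 0.117 FPKM in the same groups. Below them came Col5a3 at 1.01 ± 0.490, Col8a1 at 0.806 ± 0.598, Col13a1 at 0.787 ± 0.524, Col22a1 at 0.764 ± 0.524 and Lama5 at 0.670 ± 0.295 FPKM. Col1a1, the main fibrillar chain of connective tissue, was at 0.598 ± 0.248 FPKM, and Col6a2, Col4a4 and Lama2 were lowest among the tested rows at 0.340 ± 0.303, 0.274 ± 0.269 and 0.153 ± 0.115 FPKM. Lama2 encodes the main alpha chain of the muscle fibre's basement membrane, and its row was the lowest of the 15.

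**Figure D2:**
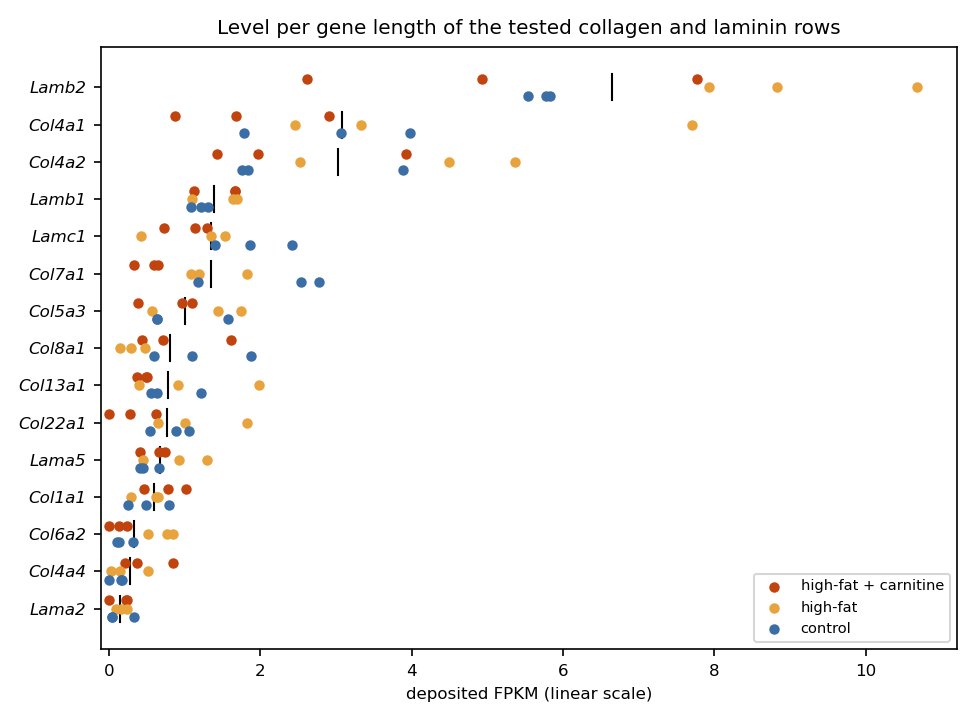
Deposited FPKM (linear axis) of the 15 tested collagen and laminin rows, ordered by their mean over 9 libraries (vertical tick). Points are single libraries, coloured by group; the mean falls from 6.65 for Lamb2 to 0.153 for Lama2.

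A row was tested when it reached about 10 counts in at least 3 libraries and 15 counts in all, which 31.2% of the collagen and laminin rows and 38.9% of all features did. Of the 15 tested rows, 5 were over that level in all 9 libraries, namely Col4a1, Col4a2, Lama5, Lamb1 and Lamb2. Col6a2 passed only through its high-fat libraries, so a difference of that group was a condition of its being tested. The tested rows had 60 to 1029 counts over the 9 libraries, and 9 of them lay below the median of all tested features, 262 counts.

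Carnitine on the high-fat diet was first set against the high-fat diet alone, which addresses what the supplement changed on that diet. No collagen or laminin row passed an adjusted p of 0.05 with edgeR's quasi-likelihood test (0 of 15), where 0.0399% of all 7523 tested features passed as higher and 0.0133% as lower. At an unadjusted p below 0.05 there were 5 lower rows, Col7a1, Col4a1, Col22a1, Col6a2 and Lamb2, and 1 higher, Col8a1, against 6.58% lower and 5.44% higher among all features. Limma-voom and the other edgeR fits tried also called 0. DESeq2 gave an adjusted p for 3 of the 15 rows only (Col4a1, Col4a2 and Lamb2) and called 0 of them; the other 12 could not be called. Of the 15 rows 9 were lower (50.6% of all features) and 6 higher (49.4%), and their median log2 fold change was −0.44, beside −0.01 over all features and −0.31 over features with no opposite-strand gene. The libraries of the groups did not overlap for 1 higher row, Col8a1, and 3 lower ones, Col7a1, Col6a2 and Lamb2, where 10.2% of all features were separated as higher and 9.82% as lower. Col6a2 was tested only through its high-fat libraries, so its place among the lower rows was favoured in advance and is no support.

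Against the control diet, carnitine on the high-fat diet had 1 row called, Col7a1, which was lower (1 of 15, against 0.213% of all tested features called lower). At an unadjusted p below 0.05 it was also the only row, against 6.03% of all features as lower and 4.33% as higher. Of the 15 rows 10 were lower (50.3% of all features) and 5 higher (49.7%), with a median log2 fold change of −0.20, beside −0.0048 over all features and −0.19 over features with no opposite-strand gene. Libraries did not overlap for Col4a4, which was higher (background 6.45%), and for Col7a1, Lamc1 and Col13a1, which were lower (background 7.18%). Col4a4 was tested through 2 carnitine libraries and 1 high-fat library, with 0 control libraries over the level for testing. Col13a1 was tested through 2 high-fat libraries and 1 control library, with 0 carnitine libraries over that level. For both rows this direction was favoured in advance and is no support. Dietary fat and carnitine both differ between these groups, so their parts cannot be told apart here. The carnitine libraries are the same in both comparisons, so these are not independent of each other.

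For the high-fat diet against the control diet no row was called by edgeR (0 of 15, where 0% of all features passed as higher and 0.0532% as lower), by limma-voom or by DESeq2, which gave an adjusted p for 13 of the 15. At an unadjusted p below 0.05 there was 1 lower row, Col8a1, and 0 higher (background 3.63% and 2.69%). Here 11 rows were higher (50.6% of all features) and 4 lower (49.4%), with a median log2 fold change of 0.28, beside 0.0042 over all features and 0.12 over features with no opposite-strand gene. Lamb2 and Col6a2 were separated as higher (background 7.23%), and Lamc1 and Col8a1 as lower (background 6.86%). For Col6a2, tested only through its high-fat libraries, this was favoured in advance and is no support.

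**Figure D3:**
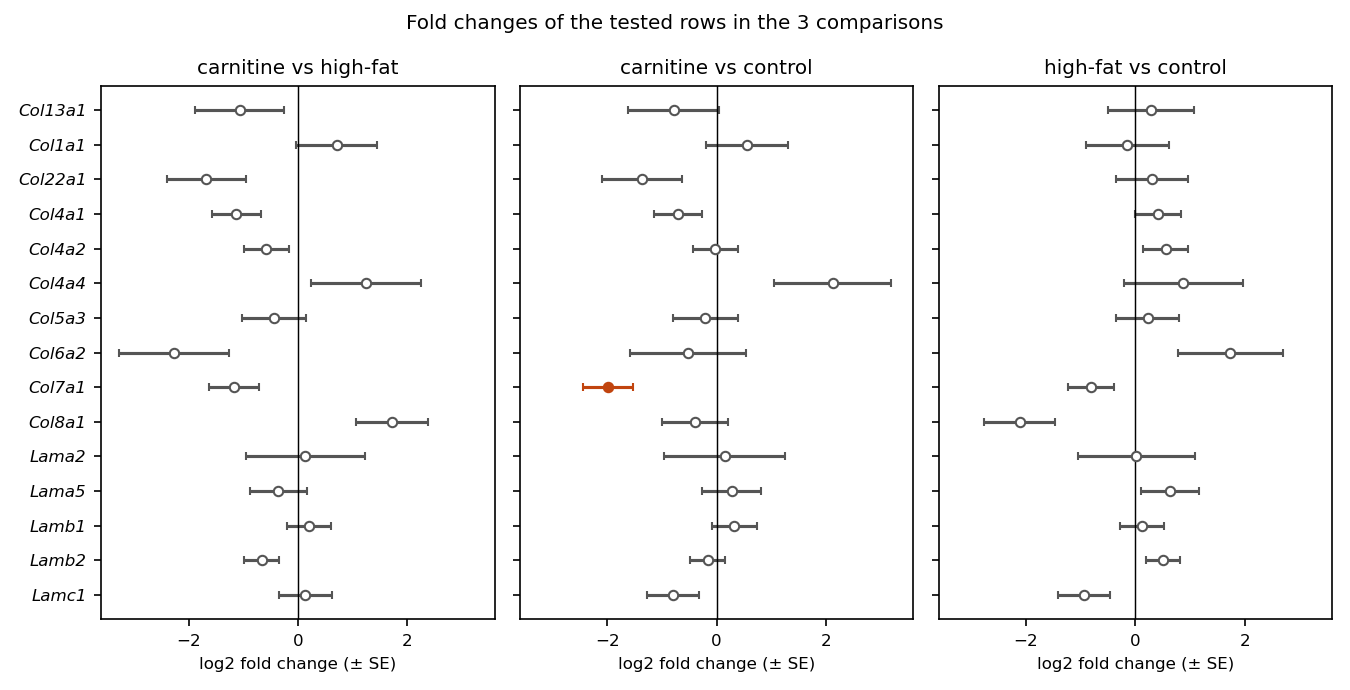
Log2 fold change ± SE of the 15 tested rows in the 3 comparisons (edgeR), the first-named group over the second; 0 means no difference. The filled red point, Col7a1 for carnitine against control (−1.99), is the one value past an adjusted p of 0.05.

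Among laminins, Lamb2 encodes the beta 2 chain, which is concentrated at the neuromuscular junction. Its normalised level was 45.5, 33.4 and 17.8 CPM in carnitine 1, 2 and 3, 46.1, 56.9 and 50.9 in high-fat 1, 2 and 3, and 36.1, 38.2 and 34.5 in control 1, 2 and 3. The high-fat libraries were all above those of both other groups, by a narrow margin over carnitine 1, and the control libraries were close together. The log2 fold change was −0.66 for carnitine against high-fat (SE 0.31, adjusted p = 0.399) and 0.50 for high-fat against control (SE 0.31, adjusted p = 0.884). Carnitine against high-fat was at −0.99 without carnitine 1 and −0.40 without carnitine 3. Lamc1 encodes the gamma 1 chain, shared by most laminin trimers. It was at 9.10, 11.99 and 6.73 CPM in carnitine 1, 2 and 3, 10.6, 11.1 and 3.34 in high-fat 1, 2 and 3, and 15.7, 13.2 and 19.7 in control 1, 2 and 3. Every control library lay above every library of the other groups. The log2 fold change was −0.80 for carnitine against control (SE 0.47, adjusted p = 0.587) and −0.94 for high-fat against control (SE 0.47, adjusted p = 0.803), so neither passed.

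Lamb1, the beta 1 chain, varied little, at 15.9, 18.4 and 12.5 CPM in carnitine 1, 2 and 3, 15.6, 9.52 and 15.97 in high-fat 1, 2 and 3, and 10.95, 13.7 and 12.8 in control 1, 2 and 3. The 3 groups overlapped, and its log2 fold changes were 0.20 (SE 0.40) for carnitine against high-fat, 0.33 (SE 0.41) for carnitine against control and 0.13 (SE 0.41) for high-fat against control. Lama5, an alpha chain common in vessel basement membranes, averaged 7.31 ± 2.07 CPM with carnitine, 9.33 ± 4.06 on the high-fat diet and 6.05 ± 1.54 on the control diet (SD, n = 3 each). Lama2 had 10, 10 and 0 counts in carnitine 1, 2 and 3, 7, 6 and 10 in high-fat 1, 2 and 3, and 2, 13 and 2 in control 1, 2 and 3. These counts are too few to resolve moderate differences, and the SE of its log2 fold changes was 1.07 to 1.11.

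Collagen IV was represented mainly by Col4a1 and Col4a2, neighbours on chromosome 8 that are transcribed in opposite directions (GRCm39, Col4a1 at 11248423 to 11362826, minus strand, and Col4a2 at 11362805 to 11499287, plus strand). Their spans share 22 bases at the start sites, so in this stretch strand alone separates their reads. The 30 bases around it, chr8:11312801-11312830 in GRCm38.p6 (RefSeq), are printed in the direction of each gene, with the shared 22 bases in capitals.
Col4a2: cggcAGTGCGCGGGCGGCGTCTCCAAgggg
Col4a1: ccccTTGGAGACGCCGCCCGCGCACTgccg
Col4a1 was at 20.9, 7.28 and 13.9 CPM in carnitine 1, 2 and 3, 23.8, 50.4 and 17.5 in high-fat 1, 2 and 3, and 30.3, 25.9 and 13.2 in control 1, 2 and 3. High-fat 2 was far above the rest, and the groups overlapped. Its log2 fold change was −1.13 for carnitine against high-fat (SE 0.44, adjusted p = 0.319), −0.71 for carnitine against control (SE 0.45, adjusted p = 0.626) and 0.42 for high-fat against control (SE 0.43, adjusted p = 0.948). Single libraries weighed on these values. Without high-fat 2, carnitine against high-fat was at −0.55 and high-fat against control at −0.16, and carnitine against control ran from −1.12 without carnitine 1 to −0.39 without carnitine 2.

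Col4a2 was at 25.0, 14.6 and 10.6 CPM in carnitine 1, 2 and 3, 15.96, 31.1 and 28.2 in high-fat 1, 2 and 3, and 12.4, 13.2 and 25.3 in control 1, 2 and 3. High and low libraries occurred in every group, and the log2 fold changes were −0.58 (SE 0.41) for carnitine against high-fat, −0.02 (SE 0.42) for carnitine against control and 0.56 (SE 0.41) for high-fat against control. Protein trimers hold both chains, with Col4a1 in excess over Col4a2 in the usual one, but the ratio of Col4a1 to Col4a2 on the FPKM scale was not steady. It was 0.739, 0.443 and 1.17 in carnitine 1, 2 and 3, 1.32, 1.44 and 0.548 in high-fat 1, 2 and 3, and 2.16, 1.74 and 0.461 in control 1, 2 and 3. Libraries with a ratio below 1 occurred in each group. Col4a4, a chain of the specialised collagen IV of kidney and other barriers, had 10, 6 and 21 counts in carnitine 1, 2 and 3, 1, 6 and 14 in high-fat 1, 2 and 3, and 5, 0 and 5 in control 1, 2 and 3. After scaling, its carnitine libraries lay above all control libraries, with a log2 value of 2.12 (SE 1.07, adjusted p = 0.505). With 0 control libraries over the level for testing, this direction was favoured in advance.

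Col7a1 encodes the chain of collagen VII, the anchoring fibril best known from the skin, where it ties the basement membrane to the connective tissue below. The gene lies on chromosome 9 at 108782654 to 108813943 (GRCm39, plus strand) and has no opposite-strand gene in the file. It had 17, 16 and 8 counts in carnitine 1, 2 and 3, 33, 42 and 48 in high-fat 1, 2 and 3, and 80, 28 and 78 in control 1, 2 and 3. Normalised, these were 6.45, 6.85 and 3.85 CPM in carnitine 1, 2 and 3, 11.7, 9.75 and 17.8 in high-fat 1, 2 and 3, and 29.2, 13.7 and 25.7 in control 1, 2 and 3. Every carnitine library was below every library of the other groups, while high-fat 3 lay above control 2. Col7a1 averaged 5.72 ± 1.63 CPM in the carnitine group, against 22.9 ± 8.12 on the control diet (SD, n = 3 each). By edgeR the log2 value was −1.99 (SE 0.46, adjusted p = 0.0452). These groups differ in both dietary fat and carnitine, whose parts in this value cannot be told apart. For carnitine against high-fat, which averaged 13.1 ± 4.22 CPM, the log2 fold change was −1.17 (SE 0.46, adjusted p = 0.318). High-fat against control gave −0.82 (SE 0.42, adjusted p = 0.815).

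The Col7a1 call was close to the threshold. It passed in 2 of 9 fits that left out 1 library, those without carnitine 1 or control 2 (adjusted p = 0.0350 and 0.0351). Without any of the other 7 it did not pass, with an adjusted p of 0.0508 without high-fat 2, 0.0534 without high-fat 3, 0.0677 without high-fat 1, 0.131 without carnitine 2, 0.164 without carnitine 3, 0.202 without control 1 and 0.279 without control 3. The fold change itself stayed between −2.24 and −1.77 in those fits. With the share of counts on features with no opposite-strand gene as a covariate it was −1.61 (SE 0.47, adjusted p = 0.194), and with those features scaled apart from the others −1.77 (SE 0.44, adjusted p = 0.0878). The gene just before Col7a1 on the same strand, Uqcrc1 (a subunit of respiratory complex III, ending at 108778691), had 2939 counts in all and was at −0.28 on the log2 scale for carnitine against control (SE 0.29, adjusted p = 0.812).

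The promoter of Col7a1 is shown because this gene carries the single call. The 250 bases before its start, chr9:108953336-108953585 on the plus strand of GRCm38.p6 (RefSeq), are given with the matches to 2 motifs in capitals.
Col7a1 promoter: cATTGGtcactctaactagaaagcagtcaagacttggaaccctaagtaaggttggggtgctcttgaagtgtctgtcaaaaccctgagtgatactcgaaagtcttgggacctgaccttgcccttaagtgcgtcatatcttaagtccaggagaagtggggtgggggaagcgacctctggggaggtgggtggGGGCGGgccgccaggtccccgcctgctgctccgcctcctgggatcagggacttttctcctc
The first is a CCAAT box (CCAAT, here read on the other strand as ATTGG) 249 to 245 bases before the start, and the second a GC box (GGGCGG) 61 to 56 bases before it. Both strands of 300-base windows, from 250 bases before to 50 after each start, were searched for these and for the TATA box (TATAAA), which Col7a1 lacks in this window. RefSeq windows were found for 35 of the 48 genes. Of 12 tested genes with a window, 9 had a GC box, 5 a CCAAT box and 1 a TATA box, beside 35.7%, 37.4% and 13.6% of 32851 windows of all genes. A match describes the letters only.

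Col8a1, a short-chain collagen of vessel walls (chromosome 16, minus strand), was at 12.1, 3.85 and 6.25 CPM in carnitine 1, 2 and 3, 1.06, 3.25 and 2.23 in high-fat 1, 2 and 3, and 8.76, 16.6 and 4.603 in control 1, 2 and 3. All 3 high-fat libraries lay below every library of the other groups, with counts of 3, 14 and 6. The log2 fold change was 1.72 for carnitine against high-fat (SE 0.66, adjusted p = 0.305) and −2.12 for high-fat against control (SE 0.65, adjusted p = 0.260). Carnitine against control gave −0.40 (SE 0.61, adjusted p = 0.878). Col8a1 had the smallest p of the set in both comparisons that involve the high-fat group alone, and those comparisons share its libraries.

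Col6a2 encodes a chain of collagen VI, the beaded microfibrils around muscle fibres. It had 5, 3 and 0 counts in carnitine 1, 2 and 3, 19, 24 and 11 in high-fat 1, 2 and 3, and 3, 2 and 8 in control 1, 2 and 3. The high-fat libraries were separate from both other groups, and they were the 3 libraries over the level set for testing. Its log2 fold change was −2.27 for carnitine against high-fat (SE 1.00, adjusted p = 0.367) and 1.74 for high-fat against control (SE 0.95, adjusted p = 0.839). Its partner chain Col6a1 was not tested, with 8, 5 and 3 counts in carnitine 1, 2 and 3, 12, 20 and 4 in high-fat 1, 2 and 3, and 8, 7 and 8 in control 1, 2 and 3. For Col6a1 the groups overlapped.

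**Figure D4:**
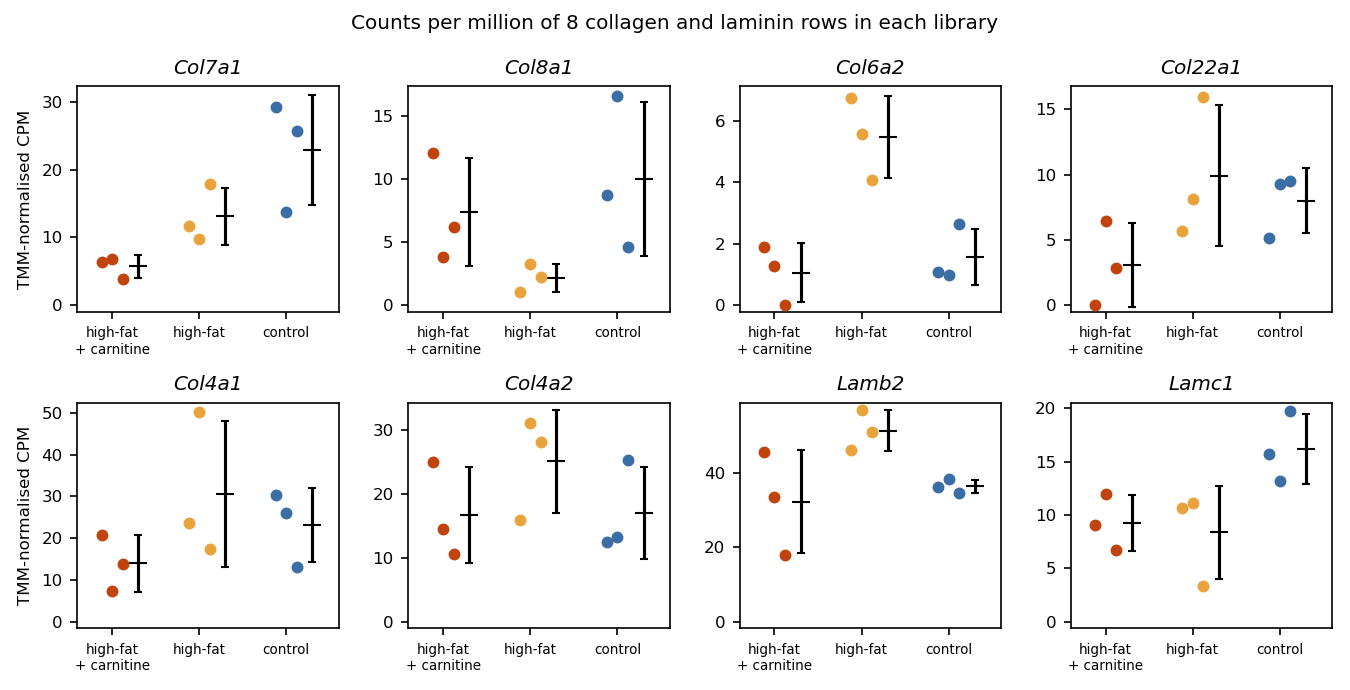
TMM-normalised CPM of 8 collagen and laminin rows in each library, with the mean ± SD of 3 libraries as a bar. Col7a1 is lowest in the carnitine libraries (3.85 to 6.85 CPM), Col8a1 is lowest and Col6a2 highest in the high-fat libraries, and Lamc1 is highest in the control libraries.

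Col22a1 encodes a collagen of the junction between muscle and tendon, and it was at 0, 15 and 6 counts in carnitine 1, 2 and 3, 16, 35 and 43 in high-fat 1, 2 and 3, and 14, 19 and 29 in control 1, 2 and 3. Its lowest libraries were carnitine 1 and 3, although after scaling carnitine 2 lay among those of the other groups. A count of 0 in carnitine 1 allows up to 1.18 CPM relative to the library total alone, which is the value of 3 counts. The log2 fold change was −1.68 for carnitine against high-fat (SE 0.72, adjusted p = 0.351) and −1.37 for carnitine against control (SE 0.73, adjusted p = 0.547). Without carnitine 2 these were −2.86 and −2.52, and without carnitine 1 they were −1.06 and −0.75. Col13a1, a transmembrane collagen of the neuromuscular junction, was at 2.26 ± 0.324 CPM with carnitine, 4.86 ± 3.68 on the high-fat diet and 3.91 ± 1.67 on the control diet. It had 6, 6 and 4 counts in carnitine 1, 2 and 3, and 16, 6 and 9 in control 1, 2 and 3. After scaling its carnitine libraries were all below those of the control diet, at the closest 2.57 CPM in carnitine 2 against 2.94 in control 2. The log2 value was −0.78 (SE 0.83, adjusted p = 0.822). With 0 carnitine libraries over the level for testing, this direction was favoured in advance.

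Fibrillar collagens form the tensile fibres of connective tissue, and 2 of their 10 rows in the file were tested. Col1a1 had 17, 8 and 12 counts in carnitine 1, 2 and 3, 11, 16 and 5 in high-fat 1, 2 and 3, and 9, 12 and 5 in control 1, 2 and 3. The groups overlapped, with log2 fold changes of 0.71 (SE 0.75) for carnitine against high-fat and 0.56 (SE 0.76) for carnitine against control. Col5a3, a minor chain that joins collagen V, was at 7.21, 7.28 and 2.89 CPM in carnitine 1, 2 and 3, 11.4, 8.59 and 3.71 in high-fat 1, 2 and 3, and 10.95, 4.89 and 4.28 in control 1, 2 and 3. It overlapped between all groups, and its log2 fold change was −0.44 (SE 0.59) for carnitine against high-fat and −0.20 (SE 0.60) for carnitine against control.

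The 33 rows that were not tested had 1 to 96 counts over all 9 libraries, with a median of 12; 15 of them had fewer than 10 counts and 26 fewer than 50. The 7 with at least 50 counts were Col3a1 (96), Col6a1 (75), Col1a2 (74), Col5a1 (59), Col15a1 (55), Col18a1 (54) and Col11a2 (53). Col3a1, a fibrillar chain of the sheath around fibres, had 2, 2 and 3 counts in carnitine 1, 2 and 3, 7, 39 and 4 in high-fat 1, 2 and 3, and 10, 20 and 9 in control 1, 2 and 3. Its carnitine libraries lay below those of both other groups, also after scaling. The margin was narrow, at 1.44 CPM (3 counts) in carnitine 3 against 1.49 CPM (4 counts) in high-fat 3. Of the 96 counts, 39 were in high-fat 2. Col1a2, which joins Col1a1 in collagen I, had 15, 6 and 2 counts in carnitine 1, 2 and 3, 10, 21 and 6 in high-fat 1, 2 and 3, and 4, 8 and 2 in control 1, 2 and 3. Col5a1, which sets fibril width, had 3, 2 and 3 in carnitine 1, 2 and 3, 5, 21 and 6 in high-fat 1, 2 and 3, and 3, 15 and 1 in control 1, 2 and 3. Col1a2 overlapped between all groups. For Col5a1 the carnitine libraries lay below the high-fat libraries after scaling, and the other pairs of groups overlapped. Col11a2, better known from cartilage, was uneven within groups, with 33 of its 53 counts in control 3 and 0 in carnitine 3, high-fat 2, high-fat 3 and control 2. The multiplexin collagens of basement membranes, Col15a1 and Col18a1, had 0 to 15 counts per library. Col15a1 overlapped between all groups, while Col18a1 was higher in every high-fat library (9, 12 and 15 counts) than in any control library (5, 4 and 0) and otherwise overlapped. None of these untested rows has a test behind it, and the share of all untested features separated in this way was not computed.

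Some rows share their place with a gene on the other strand. An opposite-strand row overlapped 14 of the 48 genes, 5 of them tested (Col4a1, Col4a2, Col22a1, Lama2 and Lamc1), and in 11 the annotated exons overlapped in GENCODE M21. In 8 genes an opposite row held more counts than the gene's own. Lama2 had 60 counts against 979 on Gm48084, a non-coding row on chromosome 10 (26825736 to 26858032, plus strand) that shares 631 bases of exon with it, 16.3 times as many. Gm48084 had 116, 104 and 62 counts in carnitine 1, 2 and 3, 108, 186 and 75 in high-fat 1, 2 and 3, and 68, 138 and 122 in control 1, 2 and 3. It did not separate the groups. On the log2 scale carnitine against high-fat gave 0.11 (SE 0.34, adjusted p = 0.925) and carnitine against control −0.15 (SE 0.34, adjusted p = 0.922). Which strand's RNA the Lama2 or Gm48084 reads came from was not tested.

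Gm16308, opposite Col22a1 with 16 bases of shared exon, had 3, 27 and 17 counts in carnitine 1, 2 and 3, 24, 49 and 34 in high-fat 1, 2 and 3, and 20, 55 and 93 in control 1, 2 and 3. It was low in carnitine 1, where Col22a1 was at 0, and high in control 3. Its log2 fold change for carnitine against control was −1.64 (SE 0.58, adjusted p = 0.286), beside −1.37 for Col22a1. Gm15419, opposite Col4a2 with 43 bases of shared exon, had 83, 90 and 57 counts in carnitine 1, 2 and 3, 74, 126 and 42 in high-fat 1, 2 and 3, and 54, 79 and 55 in control 1, 2 and 3. Its log2 fold change for carnitine against high-fat was 0.45 (SE 0.36, adjusted p = 0.644), beside −0.58 for Col4a2. Gm13372, opposite Col5a1 with 113 bases of shared exon, held 218 counts against 59 on Col5a1, and its log2 fold change for carnitine against control was 0.98 (SE 0.54, adjusted p = 0.561). Col4a3 had 31 counts against 2163 on C430014B12Rik, which also overlaps Mff. Which gene's RNA those counts came from was not tested. The median log2 fold change of all tested features that have an opposite-strand gene was 0.16 for carnitine against high-fat, 0.09 for carnitine against control and −0.06 for high-fat against control. The 10 tested collagen and laminin rows without one had medians of −0.40, −0.18 and 0.26 in these comparisons, beside −0.31, −0.19 and 0.12 for all features without one.

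**Figure D5:**
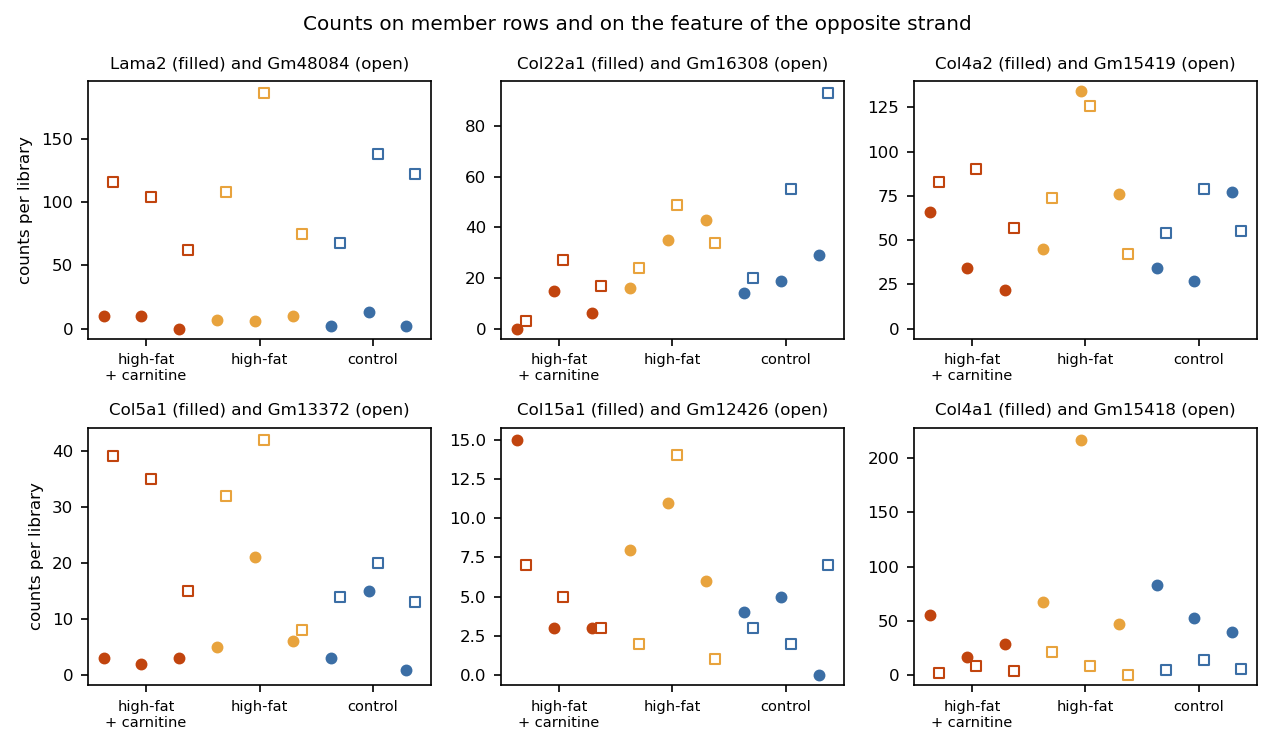
Counts per library on 6 collagen or laminin rows (filled circles) and on the row of the opposite strand (open squares). Gm48084 exceeds Lama2 in all 9 libraries, with 979 counts in all against 60, while Gm15418 lies below Col4a1.

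The partners of collagens and laminins were taken from 6 lists with 152 entries: basement membrane partners, receptors, collagen synthesis and processing, matrix proteases with their inhibitors, other matrix proteins, and TGF-beta signalling. Of these entries 55 were tested and 0 passed in any comparison by edgeR. At an unadjusted p below 0.05, carnitine against high-fat had 1 higher and 4 lower of the 55, beside 5.44% and 6.58% of all features. Carnitine against control had 4 higher and 2 lower (4.33% and 6.03%), and high-fat against control 0 higher and 1 lower (2.69% and 3.63%). The median log2 fold change of the 55 was −0.15, −0.14 and 0.10 in these comparisons. All 5 tested basement membrane partners had a negative value in both comparisons of the carnitine group, which share the carnitine libraries. Their medians were −0.70 against high-fat and −0.89 against control (50.6% and 50.3% of all features were negative). Tinagl1, Hspg2, Sparc and Hmcn2 have no opposite-strand gene in the file, and Smoc2 has one. All features without one had medians of −0.31 and −0.19. Tinagl1, a basement membrane glycoprotein gene, was at −1.41 (SE 0.58, adjusted p = 0.335) against high-fat and −1.66 (SE 0.58, adjusted p = 0.273) against control.

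Among receptors, 7 of 11 tested had a negative value with carnitine in each comparison, beside the same 50.6% and 50.3%. Muscle fibre markers had 14 of 15 negative in both, with medians of −0.61 against high-fat and −0.63 against control. Over all features the medians were −0.01 and −0.0048. At an unadjusted p below 0.05, 8 and 9 of the markers were lower, beside 6.58% and 6.03% of all features. By edgeR 0 of the 15 passed an adjusted p of 0.05 in either comparison, and both comparisons share the carnitine libraries. The part of these markers in the values of receptor genes that fibres express was not tested. Itga7, the alpha chain of the main laminin receptor of muscle fibres, was at −1.38 (SE 0.51, adjusted p = 0.290) against high-fat and −1.31 (SE 0.51, adjusted p = 0.335) against control. Sgca, of the dystrophin-linked sarcoglycan complex, was at −1.06 (SE 0.42, adjusted p = 0.322) against high-fat. Mia3, which helps load procollagen for secretion, was at −0.85 (SE 0.38, adjusted p = 0.376) against high-fat. In the other direction, the aggrecan-cleaving proteases Adamts5 and Adamts4 were at 2.32 (SE 0.73, adjusted p = 0.214) and 2.01 (SE 0.67, adjusted p = 0.237) for carnitine against control. Ccn2, a matrix protein gene induced by TGF-beta, was at 1.54 (SE 0.69, adjusted p = 0.376) for carnitine against high-fat and −2.30 (SE 0.68, adjusted p = 0.233) for high-fat against control. Itga7, Sgca, Adamts4 and Ccn2 have an opposite-strand gene in the file.

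The cell types that make collagen and laminin were followed by marker lists, each summed per library. Endothelial markers (10 of 11 tested) were at 240, 57.4 and 57.7 CPM in carnitine 1, 2 and 3, 84.0, 133 and 81.0 in high-fat 1, 2 and 3, and 84.0, 67.1 and 68.4 in control 1, 2 and 3. Mural cell markers (7 of 9 tested) were at 185, 83.5 and 80.8 CPM in carnitine 1, 2 and 3, 109, 141 and 116 in high-fat 1, 2 and 3, and 109, 99.8 and 95.7 in control 1, 2 and 3. Both were highest in carnitine 1 and next in high-fat 2, and carnitine 2 and 3 were the lowest. Col4a1 and Col4a2 followed only part of that order, with high-fat 2 highest for both, and carnitine 1 above carnitine 2 and 3. Carnitine 1, highest for these markers, was at 20.9 CPM for Col4a1, below high-fat 1 and 2 and control 1 and 2. For Col4a2 it was at 25.0 CPM, below high-fat 2 and 3 and control 3. Fibroblast markers (5 of 12 tested) ran from 41.8 to 86.1 CPM with carnitine, 35.7 to 125 on the high-fat diet and 51.3 to 83.2 on the control diet. Tenocyte markers (1 of 9 tested) stayed within 13.7 to 39.9 CPM. Schwann cell markers (4 of 10 tested) ran from 2.4 to 17.1, 4.46 to 29.2 and 5.48 to 64.1 CPM in carnitine, high-fat and control libraries. None of the listed markers found in the file was at 0 in all libraries. The part of cell composition in the collagen and laminin values was not tested.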

How the data were processed

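Messenger RNA of 9 muscle libraries was analysed from the table the authors deposited. It holds whole-number counts per gene, not normalised, and FPKM values, per the file headers. The submitters' processing notes list edgeR, HTSeq (0.13.5), HISAT2 (2.2.0), Bowtie2 (2.4.2) and Trim Galore (0.6.4) without saying what each did, and the file's coordinates are those of GRCm39. The deposited FPKM of 7795 genes equalled their counts over the library total and a length constant, to a relative deviation of at most 8e-15.

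The test of counts was that of edgeR 4.0.16, run in R 4.3.3 (robust quasi-likelihood F-test, TMM scaling, default expression filter), all 9 libraries in one fit of 3 groups, on 7523 features. P-values were adjusted over all of these within each comparison (Benjamini-Hochberg), and an adjusted p under 0.05 counted as called. The SE of a log2 fold change is that value divided by the square root of F. CPM are TMM-normalised, except the sums over collagen or laminin rows and the limits for a count of 0, which are relative to the library total alone. A count of 0 allows up to 3 counts, 0.795 to 1.30 CPM per library, for counting error only. Opposite-strand genes were found by gene spans in the file; GENCODE M21 (another build) served only to tell which exons overlap. RefSeq windows are those of GRCm38.p6.

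The members, gene lists, tests and the rule for named genes were chosen with earlier results of these data known. By that rule, values in every library are given for called members, for the 5 with the smallest p in each comparison, for the 8 highest in FPKM and for the tested rows opposite them; other per-library values were added after they were seen. Alternatives were DESeq2 1.42.0, limma-voom (limma 3.58.1), other scalings and filters, a covariate, a replicate block and each library left out.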

Additional observations from a re-analysis of the deposited data

How the results depend on the processing

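The count of features called changed with the fit. For carnitine against high-fat it was 4, against 42 with DESeq2, 26 with no filter on low counts, 10 without TMM or with a filter on CPM, and 0 with only the 6 libraries compared, with the share of counts on features with no opposite gene as a covariate, or with each class of features scaled by itself. For carnitine against control it was 32, against 69 with DESeq2, 60 with no filter, 21 with limma-voom, 20 with each class scaled by itself, 18 without TMM, 16 with the covariate and 10 with only the 6 libraries. For high-fat against control it was 4, against 68 with no filter, 40 with a filter on CPM or only the 6 libraries, 35 with DESeq2, 8 with limma-voom or the covariate, and 0 without TMM or with each class scaled by itself. Leaving out 1 library gave 1 to 84, 5 to 86 and 0 to 61 features in these comparisons, each highest without carnitine 1.

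Col7a1 was the only collagen or laminin row called, for carnitine against control. That count of 1 was 0 without TMM, with limma-voom, with only the 6 libraries, with the covariate and with each class scaled by itself (adjusted p = 0.099, 0.119, 0.0842, 0.194 and 0.0878), and 0 to 1 when 1 library was left out. Its log2 fold change was −2.02 to −1.61 in the fits of all groups or the 6 libraries, and −2.24 to −1.77 when 1 library was left out. DESeq2 called it at an adjusted p of 0.00467. For this comparison DESeq2 gave an adjusted p for 6 of the 15 rows only, and the other 9 could not be called. In the other comparisons the edgeR and limma-voom fits called 0 rows of the set. DESeq2 called 0 there too, but 12 of 15 rows for carnitine against high-fat and 2 for high-fat against control had no adjusted p and could not be called.

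With the replicate number as a block, the features called were 3, 31 and 10, and Col7a1 was not called (count 0, adjusted p = 0.0878). Libraries with the same number correlated at −0.164 to 0.142 over 9 pairs, against −0.154 to 0.187 for different numbers, so those with the same number were no more alike. Whether the numbers mark a batch was not tested.

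Of 846 recomputed fold changes of the set, 788 kept their direction and side of the threshold, 13 fell short of it (all Col7a1) and 45 changed sign, 30 of these with 1 library left out. DESeq2 gave no adjusted p for 23 of these values, and 22 of them count among the 788 by direction alone. For carnitine against high-fat, Lama2 was at −0.0268 without TMM, −0.265 with limma-voom, −0.356 with the block, −0.394 with the covariate and −0.00154 with each class scaled by itself; Lama5 was then at 0.00828, and Lamc1 at −0.0721 without TMM and −0.0266 by class. For carnitine against control, Col4a2 was at 0.0303 with the block and 0.26 with the covariate. For high-fat against control, Col13a1 was at −0.17 and Col1a1 at 0.134 with limma-voom, Col1a1 at 0.0571 without TMM, and Lama2 at −0.00466 with DESeq2 and −0.000853 with the filter on CPM. When 1 library was left out, the ranges that crossed 0 were, for carnitine against high-fat, −0.37 to 0.66 for Lama2, −0.0101 to 0.33 for Lamb1 and −0.22 to 0.41 for Lamc1. For carnitine against control they were −0.43 to 0.39 for Col4a2, −0.45 to 0.36 for Col5a3, −1.21 to 0.0681 for Col6a2, −0.96 to 0.16 for Col8a1, −0.34 to 1.91 for Lama2 and −0.49 to 0.13 for Lamb2. For high-fat against control they were −0.49 to 0.73 for Col13a1, −0.51 to 0.39 for Col1a1, −0.20 to 0.57 for Col22a1, −0.16 to 0.70 for Col4a1, −0.39 to 1.37 for Col4a4, −0.12 to 0.82 for Col5a3, −0.47 to 1.81 for Lama2 and −0.00301 to 0.34 for Lamb1. The cause of these changes was not tested. At 60 to 1029 counts per tested row over 9 libraries, counting error alone limits the fold changes of the lower rows.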
